A study of Mus musculus with 8 samples.

Results

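Potassium channel genes were taken as every row of the deposited expression table whose gene symbol begins with Kcn, which gave 94 of 24942 rows. They carry 93 distinct symbols, because Kcnb2 is listed under 2 identifiers (ENSMUSG00000092083 and ENSMUSG00000090498), between which its reads may be split. The libraries came from retinal ganglion cells, the neurons whose axons form the optic nerve, purified from mice at postnatal day 8 by immunopanning, in which cells are held on antibody-coated plates. NPC1-deficient mice gave 4 libraries and their wildtype littermates 4, all under the strain label balb/cnctr-npc1m1n/j, and no treatment is named. NPC1 is the protein that moves cholesterol out of the lysosome, and its mutation in this strain is in the germline, so that other retinal cells carry it too. Groups follow the titles and descriptions. A further characteristics field goes against them, giving wildtype for the libraries numbered 1 and 2 and homozygous for those numbered 3 and 4, whatever their title. The labels do not say whether libraries came from separate animals or from pools, and the p-values therefore cover no more than the variation among these 8 libraries. In bulk RNA, fewer cells of a type and less RNA per cell cannot be told apart.

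Potassium channels let potassium leave the cell and so pull the membrane back to rest after an action potential, and retinal ganglion cells use several families at once. Voltage-gated (Kv) channels repolarize the spike and set firing rate, KCNQ channels carry the slow M-current, calcium-activated BK and SK channels shape the afterhyperpolarization, and inward rectifiers and the tandem-pore K2P channels set resting potential. Most channels pair pore-forming subunits with accessory ones: Kv beta subunits bind Kv1, KChIP proteins bind Kv4, minK-related peptides bind several Kv pores, and BK beta subunits bind the BK pore.

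The titles were checked first on Npc1 (ENSMUSG00000024413), which had 140, 70.05, 67.6 and 66.1 normalized reads in NPC1-deficient libraries 1 to 4, against 707, 754, 831 and 857 in wildtype libraries 1 to 4. Limma gave a log2 fold change of -3.25 (SE 0.20) with an adjusted p of 3.23e-05. By exact permutation of the libraries, two-sided, p was 0.0286, the smallest that 70 assignments allow. Recovered depth was 35416750 to 41875855 reads in NPC1-deficient and 33030175 to 44050118 in wildtype libraries, and 3 reads, the most that a value of 0 allows by counting error, equal 2.69 to 3.42 normalized reads. All 12 listed retinal ganglion cell markers were detected, and their summed level was 293875 to 327799 normalized reads in NPC1-deficient and 282794 to 299594 in wildtype libraries. Markers of other retinal cells were detected as well. The 14 microglia and macrophage markers summed to 2607 to 4251 normalized reads in NPC1-deficient and 3670 to 14782 in wildtype libraries. The 12 rod markers summed to 3926 to 4682 in NPC1-deficient and 5581 to 12380 in wildtype libraries, and the 10 measured amacrine markers to 12444 to 14062 in NPC1-deficient and 13813 to 16830 in wildtype libraries. Of these 10 amacrine markers, 9 had negative log2 fold changes, with a median of -1.23 over the 10. Their geometric means were 175 to 261 in NPC1-deficient and 289 to 541 in wildtype libraries. The summed level of Y-linked genes differed between libraries, at 2597, 3479, 3705 and 3788 normalized reads in NPC1-deficient 1 to 4, against 45.6, 3093, 1241 and 1508 in wildtype 1 to 4. Xist, an RNA of female cells, had at most 68.1 in NPC1-deficient libraries, against 595, 18.2, 238 and 164 in wildtype 1 to 4. Wildtype 1, 3 and 4 thus had the most Xist and the least Y-linked signal. By these genes sex was not balanced between the genotypes, and its part in the fold changes was not tested.

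The highest levels per kb belonged to accessory subunits, a few Kv pores and the calcium-activated pore Kcnn1. Levels are given here as normalized reads per kb of exonic length, averaged over the libraries of a group. Kcnab2, a Kv beta subunit of Kv1 channels, had 1234 per kb in NPC1-deficient and 1205 per kb in wildtype libraries. Kcnip1, a KChIP calcium sensor of Kv4 channels, had 898 per kb in NPC1-deficient and 943 per kb in wildtype libraries, and Kcnc4, a fast-inactivating Kv3 pore, had 835 per kb in NPC1-deficient and 866 per kb in wildtype libraries. Below them, the KChIP gene Kcnip4 had 806 per kb in NPC1-deficient and 797 per kb in wildtype libraries, and the Kv4 pore Kcnd2 had 757 per kb in NPC1-deficient and 740 per kb in wildtype libraries. The small-conductance calcium-activated pore Kcnn1 and the Kv1 pore Kcna6 were close to each other, Kcnn1 with 634 per kb in NPC1-deficient and 578 per kb in wildtype libraries and Kcna6 with 627 per kb in NPC1-deficient and 580 per kb in wildtype libraries. For Kcna6, 39.6% of the exonic length is shared with a gene on the opposite strand (Gm26673), and the library kit does not mark strand. The KChIP genes held the largest share of the summed per-kb level, 16.4 to 17.5% in NPC1-deficient and 16.7 to 18.6% in wildtype libraries. Over all 8 libraries, 24 members averaged more than 100 normalized reads per kb.

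**Figure D1:**
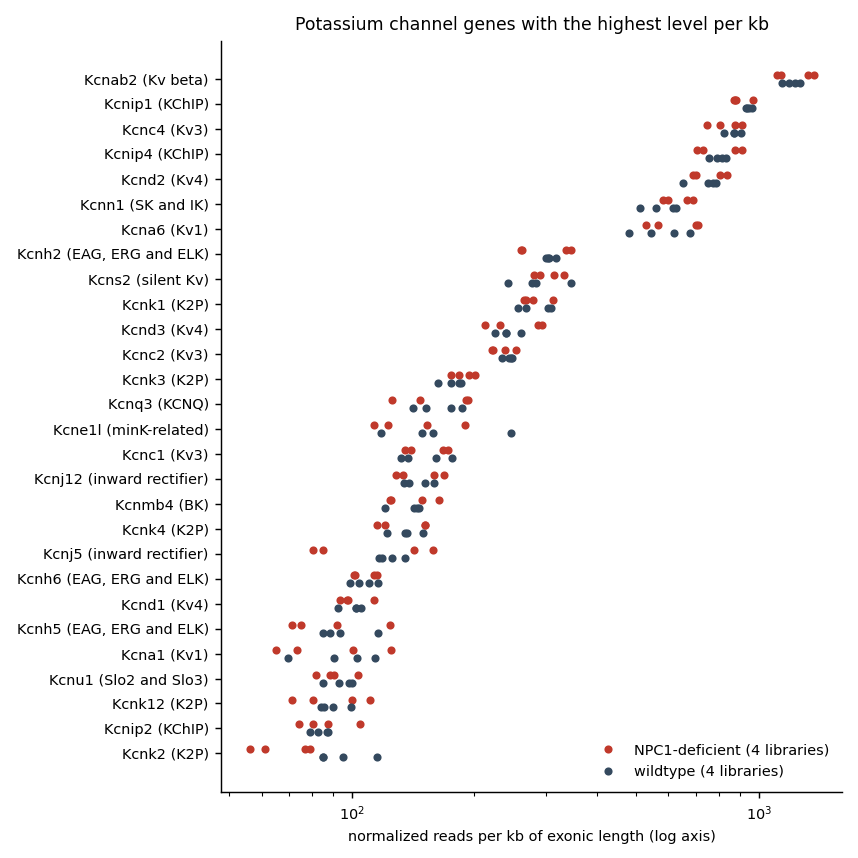
Normalized reads per kb of exonic length, on a log axis, of 28 of the 30 potassium channel genes with the highest mean level, with 4 NPC1-deficient libraries (red points) above 4 wildtype libraries (dark points) for each gene and the subfamily in brackets. Kcnab2, at 1234 per kb in NPC1-deficient and 1205 per kb in wildtype libraries, leads the order, and the points of both groups overlap in most genes.

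The leading members of the other subfamilies were lower per kb. Kcnh2, the ERG pore, had 301 per kb in NPC1-deficient and 307 per kb in wildtype libraries. Kcns2, a silent subunit that forms no channel alone but modifies Kv2 pores, had 304 per kb in NPC1-deficient and 287 per kb in wildtype libraries. Kcnk1, a K2P leak channel, had 281 per kb in NPC1-deficient and 284 per kb in wildtype libraries.

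Kcnq3, a KCNQ pore, had 164 per kb in both groups. The leading inward rectifier, Kcnj12, had 147 per kb in NPC1-deficient and 146 per kb in wildtype libraries. Kcne1l, the leading minK-related gene, had 145 per kb in NPC1-deficient and 168 per kb in wildtype libraries. Kcnmb4, a BK beta subunit and the leading BK gene, had 140 per kb in NPC1-deficient and 138 per kb in wildtype libraries, with 31.5% of its exonic length shared with the opposite strand. Kcnu1, known in mouse as the potassium channel of sperm, led the sodium- and pH-gated channels with 90.9 per kb in NPC1-deficient and 94.1 per kb in wildtype libraries. Kcnrg, a regulator of Kv assembly and not a channel, had 13.8 per kb in NPC1-deficient and 14.9 per kb in wildtype libraries.

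The comparison of genotypes asks whether loss of NPC1 moved any of these genes, and none passed the threshold. The fit was limma on log2(normalized reads + 1) over 15386 genes with a mean of at least 10, Benjamini-Hochberg adjusted at 0.05, and fold changes are NPC1-deficient over wildtype on that scale. Of 94 members, 77 were tested and 17 were too low. No member was called, higher or lower, where the share called over all genes was 0.104%, with 0.039% called higher and 0.065% lower. At an unadjusted p under 0.05 there were 7 members (9.09%), against 6.76% of all genes tested, and edgeR on the recovered reads called 0 members beside 0.104% of all genes. DESeq2 on the recovered reads called 2, Kcnj2 and Kcnk2, both lower, where it called 1.6% of all genes and 1.29% lower. Of the 77, 37 had positive and 40 had negative fold changes, with a median of -0.01 against 0.00 over all genes tested. The values of both groups did not overlap in 4 members (5.19%), beside 4.27% of all genes in either direction. All 4 were lower in NPC1-deficient libraries, which held for 2.41% of all genes, and 0 were higher, which held for 1.86%.

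**Figure D2:**
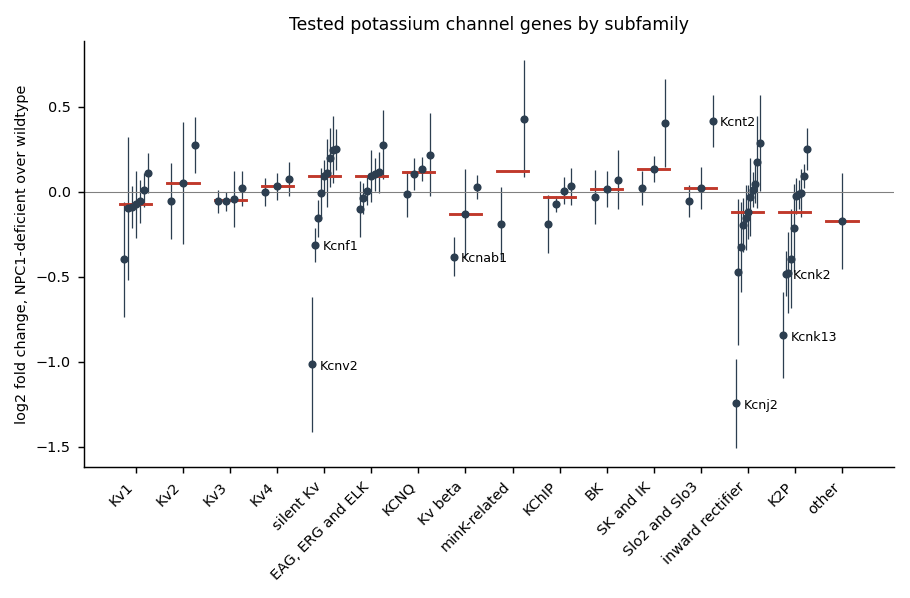
Log2 fold change, NPC1-deficient over wildtype, of the 77 tested potassium channel genes, grouped by subfamily, with bars for the standard error and a red dash at each subfamily's median. Most points lie near 0, and the members farthest below it are Kcnj2 at -1.24, Kcnv2 at -1.01 and Kcnk13 at -0.84.

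Among the inward rectifiers, which pass potassium more easily into the cell than out and hold the resting potential, 11 of 15 were tested, 4 positive and 7 negative, with a median of -0.12. Kcnj2 (ENSMUSG00000041695, chromosome 11, 111066164 to 111076821, plus strand, mm10), the strong rectifier Kir2.1, had 38.1, 22.0, 25.1 and 38.2 normalized reads in NPC1-deficient libraries 1 to 4, against 88.9, 62.6, 99.8 and 49.3 in wildtype libraries 1 to 4. Every NPC1-deficient value lay below every wildtype value. The mean was 30.9 ± 8.53 in NPC1-deficient and 75.1 ± 23.2 in wildtype libraries (SD, n = 4 each), and the log2 fold change of -1.24 (SE 0.26) had the smallest p of the members but missed the threshold in limma (adjusted p = 0.0882). DESeq2 called it (-1.28, adjusted p = 0.00233), and edgeR gave an adjusted p of 0.0716. Kcnj2 is also known from microglia and vessels. The microglia markers were 14 of 14 negative, with a median log2 fold change of -1.52. Their sum was 4251, 3855, 3991 and 2607 normalized reads in NPC1-deficient 1 to 4, against 3670, 9916, 8534 and 14782 in wildtype 1 to 4, and here wildtype 1 lay within the NPC1-deficient range. The 4 tested endothelial markers were all negative, with a median of -0.13. The sum of the 6 measured ones was 210, 238, 267 and 286 in NPC1-deficient 1 to 4, against 515, 287, 492 and 299.6 in wildtype 1 to 4, which did not overlap and was highest in wildtype 1 and 3, as Kcnj2 was. The sums of the horizontal cell markers, at 808 to 988 in NPC1-deficient and 1175 to 2026 in wildtype libraries, and of the rod markers did not overlap either. Only 2 of the 4 horizontal cell markers were tested, 1 of these was negative, and limma called 1 of the 2. The geometric means of the horizontal cell markers overlapped, at 27.7 to 51.7 in NPC1-deficient and 24.8 to 66.1 in wildtype libraries. Limma called no microglia, endothelial, rod, cone, amacrine or bipolar cell marker, beside 0.104% of all genes. The sums of the horizontal cell, rod, amacrine and bipolar cell markers were likewise highest in wildtype 1 and 3. By geometric mean the endothelial markers overlapped, at 10.3 to 16.1 in NPC1-deficient and 11.4 to 25.1 in wildtype libraries. The part of any of these cells in the Kcnj2 value was not tested.

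The other inward rectifiers had smaller fold changes. The G protein-gated subunits Kcnj3, Kcnj6 and Kcnj9, which open after inhibitory receptors are activated, had log2 fold changes of 0.05, -0.12 and -0.19, and Kcnj12 had 0.01. For Kcnj3, 31.1% of the exonic length is shared with a gene on the opposite strand (Gm26794). The pore of the ATP-sensitive channel, Kcnj11, had 42.5 ± 4.20 normalized reads in NPC1-deficient and 44.9 ± 13.0 in wildtype libraries. Kcnj10, the Mueller glia channel that buffers potassium, was low, with 22.0 ± 10.9 in NPC1-deficient and 28.2 ± 10.4 in wildtype libraries (SD, n = 4 each).

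The K2P channels, which carry the leak current that sets resting potential, had 10 of 14 members tested, with 2 positive and 8 negative fold changes and a median of -0.12. Kcnk2 (ENSMUSG00000037624, chromosome 1, 189207930 to 189402273, minus strand), the mechanosensitive and lipid-sensitive channel TREK-1, had 303, 277, 378 and 389 normalized reads in NPC1-deficient libraries 1 to 4, against 471, 420, 571 and 419 in wildtype 1 to 4. The groups did not overlap, and the highest NPC1-deficient value lay just below the lowest wildtype value. Its log2 fold change was -0.48 (SE 0.13, adjusted p = 0.202 in limma), DESeq2 called it (adjusted p = 0.0376), and a stretch of 12.2% of its exonic length overlaps a gene on the opposite strand (A430027H14Rik). Kcnk13 (ENSMUSG00000045404, chromosome 12, 99964499 to 100062682, plus strand), the channel THIK-1, which sets the resting potential of microglia, had 12.7, 15.01, 14.2 and 12.4 normalized reads in NPC1-deficient libraries, against 17.1, 24.2, 27.0 and 35.0 in wildtype libraries. These few reads also did not overlap, and the log2 fold change was -0.84 (SE 0.25, adjusted p = 0.287 in limma). Among wildtype libraries the lowest and highest values of Kcnk13 fell in the libraries with the lowest and highest microglia marker sums. Wildtype 2 and 3 were in the opposite order, with marker sums of 9916 and 8534. Wildtype 1 had a marker sum of 3670, inside the NPC1-deficient range of 2607 to 4251, but more Kcnk13 than every NPC1-deficient library. The part of microglia in the Kcnk13 value was not tested.

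Other K2P genes did not pass the test either. Kcnk10, the TREK-2 relative of Kcnk2, had 212, 271, 307 and 290 normalized reads in NPC1-deficient libraries, against 215, 206, 232 and 248 in wildtype libraries, with overlap through NPC1-deficient 1 (log2 fold change 0.25, SE 0.12, limma adjusted p = 0.774). Kcnk15, a TASK-family gene that forms no known current alone, had 48.5 ± 17.1 normalized reads in NPC1-deficient and 65.7 ± 10.9 in wildtype libraries (SD, n = 4 each), and its log2 fold change was -0.47 (SE 0.24, adjusted p = 0.79 in limma). The abundant leak channels Kcnk1, Kcnk3 and Kcnk4 had log2 fold changes of -0.02, 0.09 and -0.02. For Kcnk4, 13.1% of the exonic length is shared with a gene on the same strand (Catsperz).

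Of the silent Kv subunits, which modify Kv2 channels, 9 of 10 were tested, 5 positive and 4 negative, with a median of 0.09. Kcnf1 (ENSMUSG00000051726, chromosome 12, 17172100 to 17176888, minus strand) had 224, 234, 235 and 241 normalized reads in NPC1-deficient libraries, against 286, 300, 332 and 249 in wildtype libraries. The NPC1-deficient values were tightly grouped just under the lowest wildtype value, and the log2 fold change was -0.31 (SE 0.10, adjusted p = 0.363 in limma). Kcnv2, known from photoreceptors, had 25.4, 13.0, 36.0 and 20.7 normalized reads in NPC1-deficient libraries, against 98.0, 27.2, 55.0 and 30.5 in wildtype libraries. The groups overlapped, wildtype 1 was far above the rest, and the log2 fold change was -1.01 (SE 0.40, adjusted p = 0.573 in limma). The rod markers were lower too, 12 of 12 negative with a median log2 of -0.98, and their sums of 4647, 3926, 4682 and 4605 in NPC1-deficient libraries, against 12380, 5777, 7798 and 5581 in wildtype libraries, were also highest in wildtype 1 and next in wildtype 3. The 4 tested cone markers were all negative, with a median log2 fold change of -0.64. The 8 measured ones summed to 134 to 152 in NPC1-deficient libraries, against 464, 270, 196 and 146 in wildtype 1 to 4. These sums overlapped, and they were highest in wildtype 1 but next in wildtype 2. The part of rods or cones in the Kcnv2 value was not tested. Kcnv1, another silent subunit, had 308, 353, 412 and 378 normalized reads in NPC1-deficient libraries, against 344, 250, 325 and 301 in wildtype libraries (log2 fold change 0.25, SE 0.12, limma adjusted p = 0.761).

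**Figure D3:**
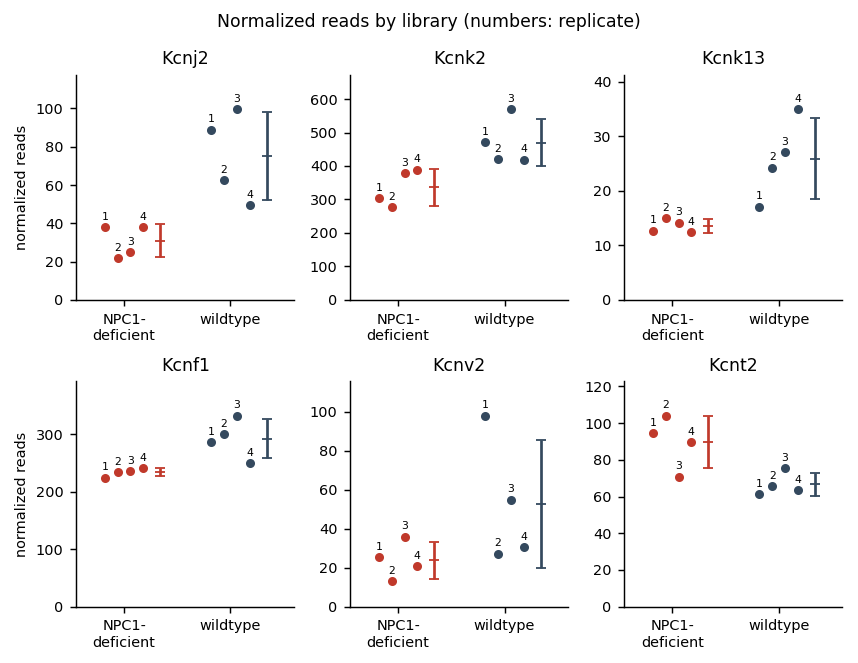
Normalized reads of 6 potassium channel genes in each library, NPC1-deficient in red on the left and wildtype in dark on the right, with replicate numbers above the points and the mean ± SD of 4 libraries beside them. The groups do not overlap in Kcnj2, Kcnk2, Kcnk13 and Kcnf1, whereas they overlap in Kcnv2 and Kcnt2.

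The sequence upstream of the annotated gene start is shown for these 4 members because their groups did not overlap. Each is the 250 bases before the start from RefSeq (GRCm38.p6), on the gene's own strand and 5′ to 3′, with motif matches in capitals. Kcnj2 lies at chr11:111065914-111066163 (plus strand), Kcnk2 at chr1:189402274-189402523 (minus strand), Kcnk13 at chr12:99964249-99964498 (plus strand) and Kcnf1 at chr12:17176889-17177138 (minus strand).
Kcnj2: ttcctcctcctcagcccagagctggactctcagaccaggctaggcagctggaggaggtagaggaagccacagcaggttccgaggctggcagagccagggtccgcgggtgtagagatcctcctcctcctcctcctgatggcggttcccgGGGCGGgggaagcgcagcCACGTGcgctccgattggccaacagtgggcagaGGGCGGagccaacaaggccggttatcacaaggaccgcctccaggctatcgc
Kcnk2: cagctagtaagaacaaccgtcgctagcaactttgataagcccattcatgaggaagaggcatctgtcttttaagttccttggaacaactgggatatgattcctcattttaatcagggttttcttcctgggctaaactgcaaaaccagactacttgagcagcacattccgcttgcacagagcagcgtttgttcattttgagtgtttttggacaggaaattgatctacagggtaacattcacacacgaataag
Kcnk13: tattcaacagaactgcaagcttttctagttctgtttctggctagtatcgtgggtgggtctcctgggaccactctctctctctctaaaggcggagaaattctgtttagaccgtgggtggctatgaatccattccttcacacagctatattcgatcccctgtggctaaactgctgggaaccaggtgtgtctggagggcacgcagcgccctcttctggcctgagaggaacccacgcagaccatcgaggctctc
Kcnf1: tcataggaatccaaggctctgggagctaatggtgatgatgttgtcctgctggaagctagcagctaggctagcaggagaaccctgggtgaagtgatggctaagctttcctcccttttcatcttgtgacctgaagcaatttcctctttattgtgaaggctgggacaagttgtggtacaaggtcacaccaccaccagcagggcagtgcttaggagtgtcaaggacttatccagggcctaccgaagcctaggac
The Kcnj2 window was 65.6% G and C, against 42.4% for Kcnk2, 52.8% for Kcnk13, 51.2% for Kcnf1 and a median of 52.4% over all windows. The search covered both strands for TATAAA (in 12.4% of 32851 windows of this length), the GC box GGGCGG (32.7%), the CRE palindrome TGACGTCA (1.55%), the AP-1 motif TGANTCA (6.75%) and the E-box palindrome CACGTG (6.02%). Kcnj2 held 2 GC boxes and 1 E-box, and the other windows held none of these letters. For Kcnk2 the table gives 4 windows, and the one at the annotated gene start is shown.

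The pore-forming Kv1 to Kv4 genes, which repolarize the action potential, held no called gene. All of them were tested, and fold changes were positive in 2 of 7 Kv1, 2 of 3 Kv2, 1 of 4 Kv3 and 2 of 3 Kv4 rows. Kcna6, the Kv1.6 pore, had 4208, 4179, 3371 and 3147 normalized reads in NPC1-deficient libraries, against 3230, 3688, 4022 and 2861 in wildtype libraries, so that the groups overlapped widely (log2 fold change 0.11, SE 0.12). The abundant Kv3 pores, which allow fast spiking, had log2 fold changes of -0.06 for Kcnc4, -0.06 for Kcnc2 and 0.02 for Kcnc1. Kcnd2 and Kcnd3, the pores of the A-type current that delays the next spike, had 0.03 (SE 0.08) and 0.08 (SE 0.10).

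The EAG, ERG and ELK pores and the KCNQ pores had mostly positive fold changes, none of which passed the test. Of the EAG, ERG and ELK genes, 7 of 8 were tested and 5 had positive fold changes, with a median of 0.09 and Kcnh2 at -0.04 (SE 0.09). Of the KCNQ genes, 4 of 5 were tested and 3 had positive fold changes, with a median of 0.12. Kcnq3 had -0.01 (SE 0.13).

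Accessory subunits did not pass either. Kcnab1, a Kv beta subunit that can speed inactivation of Kv1 channels, had 580, 470, 424 and 449 normalized reads in NPC1-deficient libraries, against 576, 608, 756 and 568 in wildtype libraries. Only NPC1-deficient 1 reached the wildtype range, and the log2 fold change was -0.38 (SE 0.12, adjusted p = 0.287 in limma). The more abundant Kcnab2 had a log2 fold change of 0.03 (SE 0.07), Kcnip1 had -0.07 (SE 0.05) and Kcnip4 had 0.01 (SE 0.08). Kcne1l, a minK-related peptide gene, had 175, 189, 237 and 293 normalized reads in NPC1-deficient libraries, against 380, 229, 244 and 182 in wildtype libraries, with wide overlap (log2 fold change -0.19, SE 0.21). The other tested minK-related gene, Kcne1, had a log2 fold change of 0.43 (SE 0.34).

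The calcium- and sodium-activated channels were also without a call. Kcnn1, the SK1 pore, had 3052, 3167, 2664 and 2741 normalized reads in NPC1-deficient libraries, against 2867, 2829, 2563 and 2347 in wildtype libraries (log2 fold change 0.13, SE 0.08, limma adjusted p = 0.879). Kcnma1, the BK pore, had a log2 fold change of 0.07 (SE 0.17), and its beta subunit Kcnmb4 had 0.01 (SE 0.11). Kcnt2, a sodium-activated Slo2 pore, had 94.4, 104, 70.9 and 89.8 normalized reads in NPC1-deficient libraries, against 61.6, 65.6, 75.5 and 63.7 in wildtype libraries. NPC1-deficient 3 fell inside the wildtype range, and the log2 fold change of 0.42 (SE 0.15) did not pass (limma adjusted p = 0.507). Kcnt1 and Kcnu1 had 0.02 (SE 0.13) and -0.05 (SE 0.10).

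A second contrast was examined after the values were seen, because the characteristics field divides libraries 1 and 2 from libraries 3 and 4. The difference between the genotype effects of these library sets was tested in a separate limma model, with genotype, library set and their product as terms. In it, 12 of 15386 genes were called (0.078%), 9 of them negative (0.0585%). Kcnj5, a G protein-gated inward rectifier (ENSMUSG00000032034, chromosome 9, 32314707 to 32344350, minus strand), was the 1 member called. It had 743, 664, 398 and 377 normalized reads in NPC1-deficient libraries 1 to 4, against 547, 554, 588 and 633 in wildtype libraries 1 to 4. NPC1-deficient libraries 1 and 2 lay above all wildtype libraries and NPC1-deficient 3 and 4 below all of them. Within libraries 1 and 2 its log2 fold change was 0.35, and within libraries 3 and 4 it was -0.66, a difference of -1.01 (SE 0.14, limma adjusted p = 0.0276), and over all libraries it was -0.15 (SE 0.19, adjusted p = 0.995). Fitted within libraries 3 and 4 alone, Kcnj5 was called lower (adjusted p = 0.00693), where 2.0% of all genes were called and 1.46% lower. Within libraries 1 and 2 alone no member was called, beside 0.37% of all genes called and 0.318% lower.

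Many other members had a difference of the same sign, although none passed. Among them were the Kv1 pore Kcna3 at -1.24 (SE 0.77, limma adjusted p = 0.525) and the K2P channel Kcnk9 at -1.23 (adjusted p = 0.202). For Kcna3, 1 library stood highest in each group. These were NPC1-deficient 2 at 56.0 normalized reads, with the others at 18.1 to 32.7, and wildtype 3 at 70.9, with the others at 20.2 to 25.1. The difference was negative in 56 of 77 members (72.7%), against 50.02% of all genes, and its median was -0.22 against 0.00. Within libraries 1 and 2 the median log2 fold change of the members was 0.11, within libraries 3 and 4 it was -0.10, and over all genes it was 0.00 in both. In 38 members (49.4%, against 26.8% of all genes) the NPC1-deficient level was higher within libraries 1 and 2 and lower within libraries 3 and 4, and in 9 (11.7%, against 26.8%) the reverse held. The difference was negative in all 7 Kv1, all 3 Kv2, all 4 Kv3, all 3 Kv4, all 4 tested KCNQ, all 3 Kv beta and all 4 KChIP rows. It was positive in both tested minK-related genes, with Kcne1l at 1.01, and in 2 of 3 tested BK genes, with Kcnmb4 at 0.43. Genes share these libraries, so members are not independent of each other. Negative differences were also in the majority among the channel-binding and channel-regulating genes without a Kcn name, which are described below. The genotype effect of Kcnj2 had the same sign in both sets, at -1.33 within libraries 1 and 2 and -1.16 within libraries 3 and 4.

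**Figure D4:**
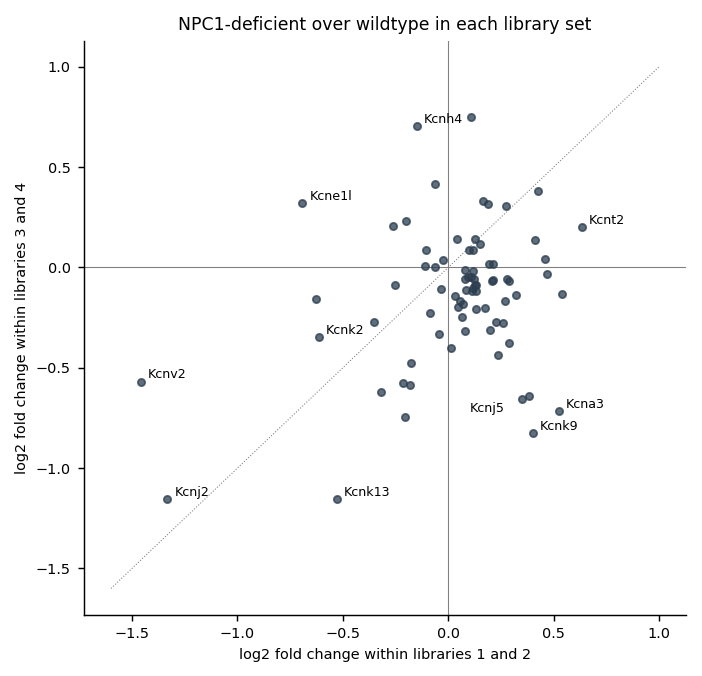
Log2 fold change, NPC1-deficient over wildtype, of the 77 tested potassium channel genes within libraries 3 and 4 (vertical axis) against that within libraries 1 and 2 (horizontal axis), with the dotted line at equal values. The area below 0 on the vertical and above 0 on the horizontal axis holds 38 members, Kcnj5 among them, and Kcnj2 lies below 0 on both axes near the dotted line.

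The library sets also differed from each other across both genotypes. In a fit with genotype and library set, 335 genes were called for the set (2.18%), and 1.74% were lower in libraries 3 and 4. Of the members, 4 were called (5.19%), all lower in libraries 3 and 4. Among them, Kcnq3 had a log2 difference of -0.40 (SE 0.06, adjusted p = 0.0109 in limma), Kcna1 -0.57 (SE 0.11, adjusted p = 0.021) and Kcnn1 -0.21 (SE 0.05, adjusted p = 0.042). Kcna1 is the Kv1.1 pore that limits repetitive firing. Kcnq3 had 2800, 2845, 1845 and 2168 normalized reads in NPC1-deficient libraries 1 to 4, against 2749, 2571, 2080 and 2243 in wildtype 1 to 4, so libraries 3 and 4 were lower in both genotypes. Kcna1 had 595, 480, 351 and 312 in NPC1-deficient and 492, 544, 432 and 333 in wildtype libraries. The set effect was negative in 51 of 77 members (66.2%), against 48.7% of all genes. Both NPC1-deficient libraries 3 and 4 lay below both NPC1-deficient libraries 1 and 2 in 45 members (58.4%, against 27.5% of all genes), and the same held among wildtype libraries in 20 members (26.0%, against 19.7%). What separated the sets is not stated, and its part in these values was not tested.

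**Figure D5:**
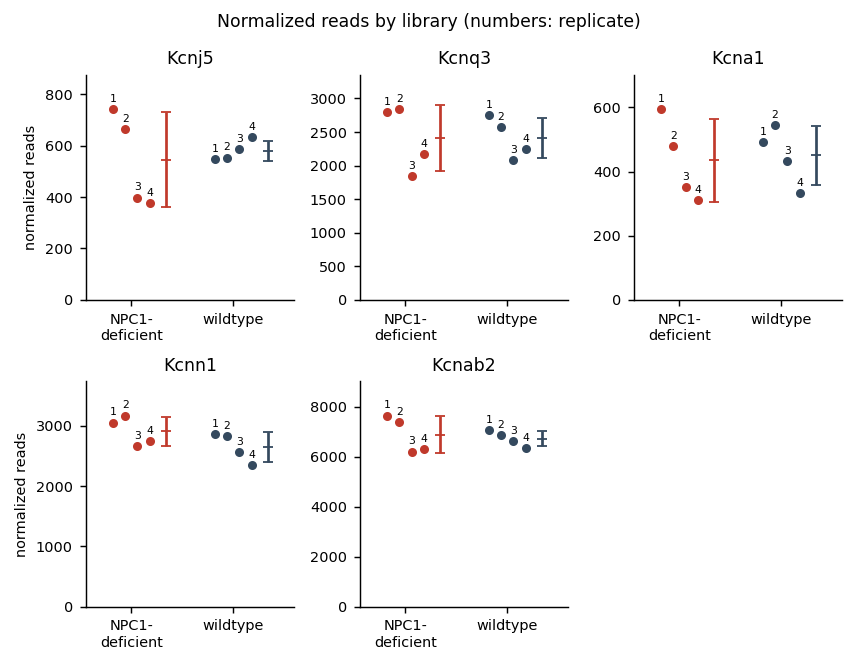
Normalized reads of 5 potassium channel genes in each library, NPC1-deficient in red on the left and wildtype in dark on the right, with replicate numbers above the points and the mean ± SD of 4 libraries beside them. Kcnq3 and Kcna1 are lower in libraries 3 and 4 of both genotypes, and in Kcnj5 the NPC1-deficient libraries 3 and 4 (398 and 377) lie below every other library.

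Genes whose products bind, anchor or regulate potassium channels without a Kcn name were read from a list of 36. All were measured, 33 were tested, 18 had positive and 15 negative fold changes, and the median was 0.02, with 2 at an unadjusted p under 0.05 in limma, beside 6.76% of all genes. None was called by limma or edgeR, which each called 0.104% of all genes, or by DESeq2, which called 1.6%. Cntn2, the contactin that clusters Kv1 channels beside the node of Ranvier, had 711, 639, 631 and 672 normalized reads in NPC1-deficient libraries, against 541, 505, 638 and 548 in wildtype libraries (log2 fold change 0.25, SE 0.08, limma adjusted p = 0.381). Cntnap2, its binding partner, had a log2 fold change of -0.16 (SE 0.06, adjusted p = 0.62). Sgk1, a kinase that raises surface levels of several channels, had -0.33 (SE 0.16, adjusted p = 0.754), and Dlg1, a scaffold of Kv1 and Kir2 channels, had -0.21 (SE 0.10, adjusted p = 0.758). Cntnap1, the paranodal protein next to which Kv1 channels gather, had 3150, 2495, 1549 and 1492 normalized reads in NPC1-deficient libraries 1 to 4, against 1939, 1846, 2347 and 2065 in wildtype 1 to 4. Its genotype effect differed between the library sets in the way of Kcnj5, with 0.57 within libraries 1 and 2, -0.53 within libraries 3 and 4 and a difference of -1.10 (SE 0.14, limma adjusted p = 0.0276). Among the 33 tested genes of this list, 23 had a negative difference, so the lean seen in the Kcn members was not limited to them. The list's median genotype effect stood at 0.055 for the first library set (1 and 2). For the second set (3 and 4) it stood at -0.073.

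The 17 untested members averaged under 10 normalized reads. Just inside the limit were Kcna7 with a mean over 8 libraries of 10.3 and Kcnj1 with 12.4, and just outside it were Kcnj4 with 8.05 and Kcne4 with 7.77. In the inward rectifier family, Kcnj8, known from pericytes, had 5.71 ± 3.17 in NPC1-deficient and 3.65 ± 3.29 in wildtype libraries (SD, n = 4 each). Kcnj13, known from retinal pigment epithelium, was at most 1 read in any library. No library exceeded 3 reads in 5 members (Kcnh3, Kcnq1, Kcnmb3, Kcnj13 and Kcnk7), so they stayed within the limit that a count of 0 allows. The rest were Kcng3, Kcne2, Kcne3, Kcnmb1, Kcnn4, Kcnj15, Kcnk5, Kcnk16 and Kcnk18.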

How the data were processed

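RNA from immunopanned retinal ganglion cells was sequenced in 8 libraries after preparation with a TruSeq v2 kit, per the labels' protocols, so reads of opposite strands cannot be told apart. The submitters' processing notes name CASAVA 1.8.2, HTSeq 0.5.4p3, DESeq2 1.0.19 and mm10 without roles, with the aligner and annotation not given in the sources used here. Values deposited by the authors are a normalized signal, that is, a read count divided by a size factor of each library, as the deposited values show. All 199536 values (100%) were whole reads within 1e-06 once multiplied back.

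Genes with a mean of at least 10 (15386, with 9556 removed) were compared as log2(value + 1) by limma 3.58.1 (R 4.3.3) with trended variance, no covariate, two-sided, and Benjamini-Hochberg adjusted over all genes at 0.05. This scale understates fold changes of low genes. edgeR 4.0.16 (quasi-likelihood) and DESeq2 1.42.0 on recovered reads were alternatives. Exonic length is the union of isoforms in GENCODE M21, which held 24471 identifiers (98.1%) and 93 of the 94 members.

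Members and lists were chosen with earlier results of these data known. The rule named Npc1, members past the threshold, the 12 with the smallest p, members whose groups did not overlap, the highest member per kb in each subfamily and the 4 partners with the smallest p. Some genes it names are not reported here. Every other named gene, the test of the difference between library sets and the test of the set effect were chosen after the values were seen. The choices varied were the pseudocount (0.5, 5), the minimum mean (none, 50), the scaling (upper-quartile, quantile), a block for replicate number, a term for library set, single sets, and each library left out in turn.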

Additional observations from a re-analysis of the deposited data

Results flagged for a closer look

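In 70 groups of 4 libraries, 4 single libraries stood apart by Dixon's criterion, and chance alone gives about 1 in 20. The groups were those of the genes named by the rule and of Kcnj5, Kcna1 and Kcnq3, which were added for their library-set results. Npc1 was highest in NPC1-deficient 1 (140 normalized reads, with the other NPC1-deficient libraries at 66.1 to 70.05). Kcnip1 was highest in NPC1-deficient 1 (5989, with the others at 5401 to 5458). Kcnmb4 was lowest in wildtype 4 (402, with the others at 472 to 486). Sgk1 was lowest in NPC1-deficient 1 (557, with the others at 624 to 636).

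The genotype effect differed between library sets, by the tested term, in Kcnj5 (-1.01 on the log2 scale, libraries 3 and 4 minus libraries 1 and 2) and in Cntnap1 (-1.10).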

How the results depend on the processing

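The absence of called members held in limma under both pseudocounts, both filters, both scalings, the library set term and each library left out. Exceptions were libraries 3 and 4 alone (1 lower, Kcnj5) and DESeq2 (2 lower, Kcnj2 and Kcnk2). Kcnj2 kept its direction in all 21 alternatives, from -1.43 to -1.09, with adjusted p from 0.00233 to 0.295, and Kcnf1 and Kcnk2 kept theirs in all 21, from -0.39 to -0.25 and from -0.62 to -0.35. Others kept their direction but moved by over 1.5 times: Kcnk13 lay between -1.16 and -0.53 and Kcnv2 between -1.46 and -0.57 in 20 alternatives, Kcnab1 between -0.59 and -0.18, Kcnk15 between -0.74 and -0.20 and Kcnt2 between 0.20 and 0.63 in 21. Genes called over the whole table numbered 16, but 10 at a minimum mean of 50, 99 with the library set term, 57 in libraries 1 and 2 alone, 307 in libraries 3 and 4 alone, 246 with DESeq2, and 2 to 141 with each library left out. They numbered 2 without NPC1-deficient 3, 141 without wildtype 1, and 167 without wildtype 1 and NPC1-deficient 1, an alternative added after seeing the data. The median member fold change was 0.11 in libraries 1 and 2 alone. Partners called were 1 in libraries 1 and 2 alone (Cntnap1) and 3 in libraries 3 and 4 alone (Cntnap1, Lgi3 and Sgk1). Fitting the replicate number as a block gave 34 called genes and no called member. Same-numbered libraries had correlated deviations of -0.07 to -0.02, so the numbers were not treated as a pairing. The causes of these shifts were not tested. Members under about 10 reads lie near the floor of 3 reads, and depth limits what they can show.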
